A study of Mus musculus with 9 samples.

Results

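Hepatocyte-enriched transcription factors were taken as 9 genes of the FOXA, C/EBP, ONECUT and PROX1 families: Foxa1, Foxa2, Foxa3, Cebpa, Cebpb, Cebpd, Onecut1, Onecut2 and Prox1. Their probe sets were found by symbol in the array's annotation, without use of measured values, and 16 probe sets carried 1 of these symbols alone. The choice of the genes themselves was made with earlier results of these data known. The 9 genes stood among 18193 genes tested. RNA was measured in liver of male mice aged 14 weeks on standard chow. The BKS mice (C57BL/KSlepr+/+, 5 samples) carried the intact leptin receptor gene. The db/db mice (BKS.Cg-Leprdb, 4 samples) carried the db mutation of that gene in all tissues. According to the study's design, which calls the mice littermates, the db/db mice had become obese and diabetic with fatty liver. Each sample was hybridised to its own array, and all samples are whole liver tissue, in which fewer cells of a type and less RNA per cell cannot be told apart.

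FOXA proteins carry a forkhead DNA-binding domain and are known to open chromatin at liver genes, while C/EBP proteins are basic leucine zipper factors that drive metabolic and acute phase genes. ONECUT proteins bind DNA through a cut domain and a homeodomain and act in the development of hepatocytes and bile ducts. Prox1 is a prospero homeobox factor that acts in the liver mainly as a corepressor and also sets the identity of lymphatic endothelium. These families are known to bind together at many regulatory regions of hepatocyte genes.

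The values given here are normalized signals, meaning the deposited intensities after quantile normalization between arrays, and log2 fold changes are differences of log2(signal + 16) between group means, db/db minus BKS. A gene is said to have risen or fallen where limma gave a Benjamini-Hochberg adjusted p under 0.05 over all genes. Levels of different probe sets are not compared, since probes differ in response. The number of arrays limits the precision, and the labels number the samples without naming the animals, so that p-values rest on sample-to-sample spread alone, which may be technical. Control probe sets for 18S ribosomal RNA split the arrays into a high set (2 BKS arrays, numbers 4 and 5, and 2 db/db arrays, numbers 3 and 4, mean signal 944 to 6929) and a low set (the remaining 5 arrays, mean signal 13.2 to 23.6). Each set includes BKS and db/db arrays, and results are shown within each, or with the set as a block in the fit. The ratio of 3' to 5' signal for actin was 3.18 to 5.93 in the high 18S set and 1.62 to 3.32 in the low one, and that for Gapdh was 0.88 to 1.77 in BKS and 0.80 to 1.09 in db/db. The part of this difference in the results was not tested.

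In db/db liver 4 of the 9 factors had less RNA and none had more. Foxa1 fell 4.30-fold, Onecut1 2.32-fold, Foxa3 1.73-fold and Onecut2 1.64-fold, while no C/EBP gene and not Prox1 passed the test. Over all genes 2.6% fell and 2.89% rose, and 5.49% passed in either direction. The median log2 fold change was -0.79 for the 3 FOXA genes, -0.10 for the 3 C/EBP genes and 0.00 over all genes. All db/db arrays lay under all BKS arrays for Foxa1, Foxa3 and Onecut2, which held for 4.42% of all genes (9.15% had groups without overlap in either direction). With the 18S set as a block the same 4 genes passed, against 4.13% of all genes lower and 8.23% in either direction. Without normalization beyond the authors' scaling the same 4 genes passed, and with each array centred on its median Foxa3 (-0.72, adjusted p = 0.108) and Onecut2 (-0.64, adjusted p = 0.0971) did not.

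**Figure D1:**
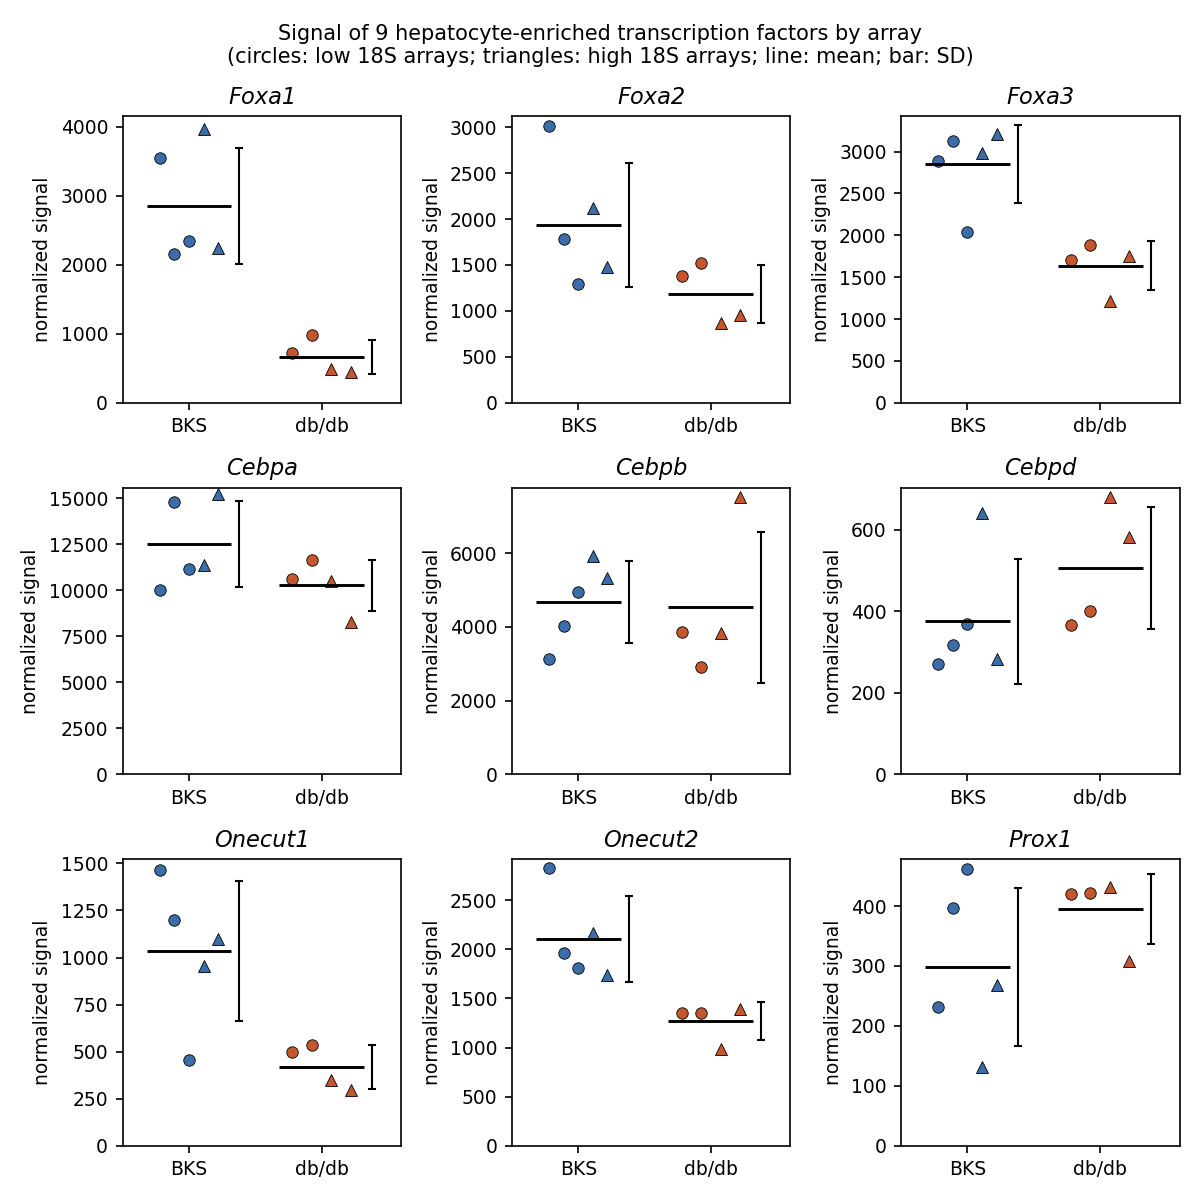
Normalized signal of the brightest probe set of each of the 9 genes on each array (vertical axes from 0, in array signal units), with 5 BKS arrays in blue and 4 db/db arrays in orange. Circles are low 18S arrays, triangles high 18S arrays, lines are group means and bars are SD. Foxa1 runs from 2155 to 3971 in BKS and from 443 to 988 in db/db, and the groups also stay apart for Foxa3 and Onecut2.

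Foxa1 showed the largest change of the 9 genes. Its normalized signal was 3548, 2155, 2346, 3971 and 2239 on BKS 1 to 5 and 724, 988, 492 and 443 on db/db 1 to 4. The lowest BKS array was thus above the highest db/db array, and the 2 high 18S arrays of db/db were the lowest of all. On the log2 scale the mean went from 11.44 ± 0.41 (SD, n = 5) to 9.33 ± 0.52 (SD, n = 4), a log2 fold change of -2.10 (SE 0.25, limma adjusted p = 2.45e-04). Blocking on the 18S set gave -2.08 (adjusted p = 1.31e-04), and the group means differed by -1.61 within the low set and -2.63 within the high set. No single array carried the call: with each left out in turn the change lay between -2.32 and -1.93, with an adjusted p of at most 0.00132.

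Promoter sequences of a RefSeq table (GRCm38.p6) are shown for Foxa1, Foxa3 and Onecut1, which fell, and for Foxa2, whose most upstream entry holds a match. They cover the 250 bases before a transcription start and are written 5' to 3' along the gene. Capitals mark matches to TGTTTAC, a forkhead motif bound by FOXA proteins, TTGCNNAA, a C/EBP motif, ATTGAT, a motif of ONECUT proteins, or TTCNNNGAA, the motif of STAT5, which carries growth hormone signals in liver. Both strands were searched, and no match overlapped another.
Foxa1, chr12:57546112-57546361, minus strand: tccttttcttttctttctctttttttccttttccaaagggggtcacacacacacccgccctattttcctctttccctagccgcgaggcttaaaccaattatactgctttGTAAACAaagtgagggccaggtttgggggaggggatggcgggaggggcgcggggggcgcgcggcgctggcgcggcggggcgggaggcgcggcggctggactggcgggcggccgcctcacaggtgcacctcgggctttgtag
Foxa2, chr2:148046970-148047219, minus strand: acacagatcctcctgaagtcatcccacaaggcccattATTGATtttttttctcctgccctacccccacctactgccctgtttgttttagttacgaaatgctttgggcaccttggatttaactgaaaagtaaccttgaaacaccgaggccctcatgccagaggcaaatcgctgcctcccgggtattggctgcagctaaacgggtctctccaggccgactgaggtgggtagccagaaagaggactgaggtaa
Foxa3, chr7:19023540-19023789, minus strand: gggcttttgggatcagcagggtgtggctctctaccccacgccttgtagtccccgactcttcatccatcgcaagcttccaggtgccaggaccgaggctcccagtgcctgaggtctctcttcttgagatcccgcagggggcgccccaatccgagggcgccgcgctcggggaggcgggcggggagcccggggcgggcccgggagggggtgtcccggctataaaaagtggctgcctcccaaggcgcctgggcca
Onecut1, chr9:74861671-74861920, plus strand: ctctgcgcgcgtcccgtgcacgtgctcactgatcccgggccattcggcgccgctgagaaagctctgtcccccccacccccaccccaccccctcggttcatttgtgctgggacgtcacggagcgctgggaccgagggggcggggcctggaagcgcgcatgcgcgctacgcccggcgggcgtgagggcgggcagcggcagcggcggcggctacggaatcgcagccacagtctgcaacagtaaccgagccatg
The Foxa1 promoter holds the forkhead motif on the antisense strand, starting 141 bases before the start. The Foxa2 entry shown holds the ONECUT motif starting 213 bases before the start, and the other Foxa2 entries hold no match. Neither motif nor the other 2 were found in the Foxa3 and Onecut1 windows, nor in those of Cebpa, Cebpb and Prox1, out of 10 entries for 7 of the 9 genes. Entries on a chromosome left out of the printed sequences are not in this count. No match was found for Onecut2, which also fell, or for Cebpd, and whether either has an entry is not stated here. Among 32851 promoters of the table, 3.17% hold the forkhead letters, 6.72% the ONECUT letters, 9.56% the C/EBP letters and 7.02% the STAT5 letters in the same window. A match describes letters only.

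Foxa3, which is expressed in mature liver and binds the same motif, had a normalized signal of 2883, 3127, 2043, 2987 and 3206 on BKS 1 to 5. On db/db 1 to 4 it was 1708, 1882, 1221 and 1748. BKS 3 stood under the other BKS arrays and still above every db/db array. Its log2 fold change was -0.79 (SE 0.16, limma adjusted p = 0.0120), with -0.79 under the 18S block (adjusted p = 0.00788). Means differed by -0.55 within the low set and -1.07 within the high set. It remained past the threshold with each array left out in turn (adjusted p up to 0.0413) but not when the low set was fitted alone (-0.53, adjusted p = 0.214).

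Foxa2, which is known to act on lipid and bile acid genes in fasting, had a signal of 3010, 1780, 1296, 2120 and 1473 on the BKS arrays. On the db/db arrays it was 1375, 1521, 872 and 956. The groups overlapped, since BKS 3 and BKS 5 lay within or below the db/db 1 and db/db 2 values, and BKS 1 stood highest. Foxa2 had a log2 fold change of -0.68 (SE 0.24, 95% interval -1.20 to -0.16) and did not pass after adjustment (limma adjusted p = 0.135, and 0.0921 with the 18S block). All 3 FOXA genes thus had a negative change, of which 2 passed.

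Over all arrays Foxa1 changed more than either other FOXA gene, a difference that did not pass within the 18S sets. The log2 difference between Foxa1 and Foxa2 within an array was 0.24 to 0.90 in BKS and -1.08 to -0.61 in db/db, so the groups did not overlap. It changed by -1.42 (exact two-sided permutation test over 126 splits of the arrays, p = 0.00794, the smallest these splits can give, adjusted p = 0.0278 over 7 pairs of family members). For Foxa1 and Foxa3 the difference was -0.53 to 0.41 in BKS and -1.94 to -0.92 in db/db and changed by -1.31 (exact p = 0.00794, adjusted p = 0.0278). Foxa2 and Foxa3 differed in change by 0.11 (exact permutation p = 0.698, adjusted p = 0.706). When arrays were exchanged only within an 18S set, 60 splits remained, and the adjusted p of both Foxa1 pairs was 0.0778 (-1.43 and -1.29, exact permutation p = 0.0167 and 0.0333). With any 1 array left out the changes were -1.52 to -1.33 and -1.46 to -1.11, and the adjusted p was 0.0625 to 0.125. The splits were then fewer, which raises the smallest adjusted p possible, but 0.125 lies above that limit.

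**Figure D2:**
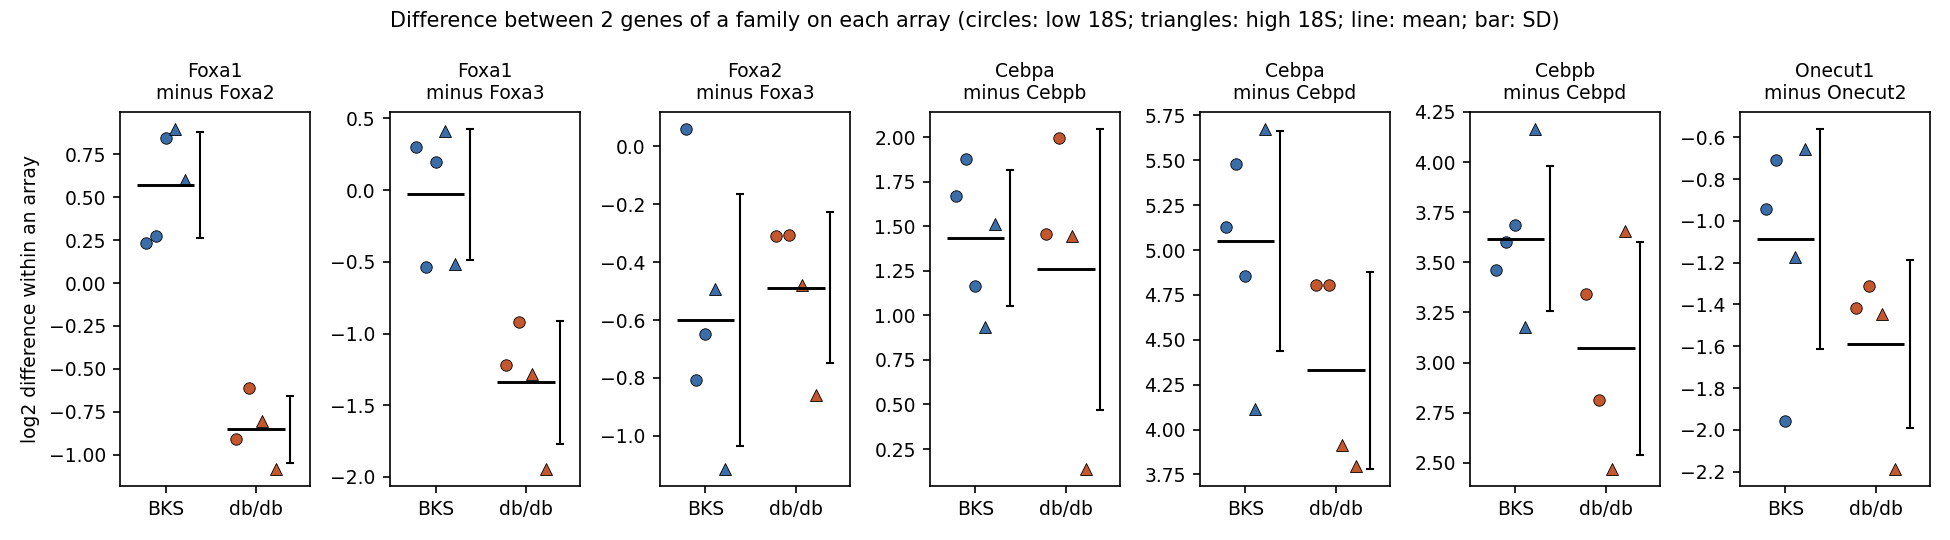
Difference in log2 signal between 2 genes of a family on each array (vertical axes in log2 units, scaled separately, not starting at 0), for 5 BKS and 4 db/db arrays, with circles for low and triangles for high 18S arrays, lines for means and bars for SD. The absolute height has no meaning because probe sets differ in response. The groups separate for Foxa1 minus Foxa2 (0.24 to 0.90 against -1.08 to -0.61) and for Foxa1 minus Foxa3, and overlap in the other 5 panels.

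Both ONECUT genes fell. Onecut1, which is known to respond to growth hormone in rodent liver, had a normalized signal of 1464, 1199, 454, 955 and 1101 on BKS 1 to 5. On db/db 1 to 4 it was 497, 536, 350.1 and 294. BKS 3 was far below the other BKS arrays and inside the db/db range, and all other BKS arrays were above every db/db array. Onecut1 thus changed by -1.22 on the log2 scale (SE 0.30, limma adjusted p = 0.0310). The other probe set of Onecut1 gave -1.21 (SE 0.35) with BKS 3 again lowest of its group at 442. Over all 45037 probe sets the brighter probe set passed (adjusted p = 0.0422) and the other did not (adjusted p = 0.0933, and 0.0482 with the 18S block). Group means differed by -0.83 within the low 18S set and -1.63 within the high set. Array weights (-1.05, adjusted p = 0.0720) or the low set fitted alone (-0.81, adjusted p = 0.391) ended the call. Without BKS 3 the change was -1.49 (adjusted p = 0.00236), but the call was also lost on leaving out any other BKS array, or db/db 3 or 4 (adjusted p between 0.0613 and 0.0965).

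Onecut2, a close relative that overlaps with Onecut1 in liver and bile duct development, had a signal of 2827, 1968, 1809, 2171 and 1741 on the BKS arrays by its brightest probe set. On the db/db arrays it was 1351, 1354, 980.0 and 1393. The groups did not overlap, and db/db 3 lay below the other 3 db/db arrays, which were close to each other. Its change was -0.71 on the log2 scale (SE 0.16, limma adjusted p = 0.0220), and means differed by -0.67 within the low 18S set and -0.73 within the high set. The other 2 probe sets gave -0.49 (SE 0.22) and -0.46 (SE 0.29) with overlapping groups, and neither passed over all probe sets (adjusted p = 0.340 and 0.575, against 0.0373 for the brightest). Leaving out BKS 4 (adjusted p = 0.0511) or db/db 3 (-0.59, adjusted p = 0.0791) also ended the call, as did the fit on either 18S set alone (adjusted p = 0.150 and 0.141). The changes of Onecut1 and Onecut2 differed by -0.50 (exact permutation p = 0.159, adjusted p = 0.222), so the fall of Onecut1 was not shown to be the larger.

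The C/EBP genes did not pass the test in either direction. Cebpa, the main metabolic C/EBP factor of quiescent hepatocytes, had a signal of 9994, 14800, 11135, 11347 and 15219 in BKS and 10624, 11616, 10488 and 8295 in db/db. The groups overlapped, with db/db 4 lowest of all. Its log2 fold change was -0.28 (SE 0.15, 95% interval -0.59 to 0.04, limma adjusted p = 0.365), so that interval leaves out a fall as large as that of Foxa1.

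Cebpb, which is induced by cytokines, glucocorticoids and cyclic AMP, had a signal of 3128, 4012, 4953, 5924 and 5334 in BKS. In db/db it was 3854, 2905, 3841 and 7527. db/db 4 was the highest and db/db 2 the lowest of all 9 arrays, so the spread within db/db covered that of BKS. The log2 fold change was -0.10 (SE 0.25, 95% interval -0.64 to 0.43, adjusted p = 0.885). The other probe set stood at 0.39 (SE 0.26, adjusted p = 0.586 over all probe sets), also highest on db/db 4 at 2833, and its sign was opposite. The direction of Cebpb therefore depends on the probe set, and under median centring it stood at 0.00024.

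Cebpd, best known for its induction in the acute phase response, had a signal of 270, 316, 370, 641 and 282 in BKS and 365, 400.1, 680 and 581 in db/db. The 3 highest values were on high 18S arrays of both genotypes. The log2 fold change was 0.44 (SE 0.27, 95% interval -0.15 to 1.04, adjusted p = 0.453). Its other probe set was dim, with an intensity under the array's median on 6 of 9 arrays, and stood at 0.19 (SE 0.58). The change of Cebpa differed from that of Cebpd by -0.72 and from that of Cebpb by -0.17, and that of Cebpb from that of Cebpd by -0.55, none past the threshold (exact permutation p from 0.0952 to 0.706, adjusted p from 0.208 to 0.706).

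Prox1 had a signal of 231, 397, 462, 132 and 268 on the BKS arrays and 419, 421, 432 and 308 on the db/db arrays by its brightest probe set. The db/db arrays lay inside the BKS range, and BKS 4 was lowest. The log2 fold change was 0.49 (SE 0.31, 95% interval -0.18 to 1.17, limma adjusted p = 0.467). Its other probe sets stood at -0.16 (SE 0.24) and 0.21 (SE 0.73), and the latter was under the array median on 3 arrays, so the 3 probe sets do not give 1 direction. Markers of lymphatic endothelium, which also contains Prox1, showed no call among 5 measured (median 0.20), with a summed signal of 1637 to 3411 in BKS and 2391 to 3594 in db/db. That median is the change of Reln, the brightest of them (log2 means 10.78 in BKS and 10.98 in db/db). Reln is also listed as a stellate marker, so the sum is not particular to lymphatic endothelium.

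Over the 16 probe sets of the 9 genes 4 were called, all lower, where 1.19% of all probe sets were called lower and 2.78% in either direction. In 3 of them all db/db arrays lay under all BKS arrays, as did 3.04% of all probe sets. Foxa1 and Foxa3 have 1 probe set each, and for Onecut1 and Onecut2 the brightest passed and the others did not.

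**Figure D3:**
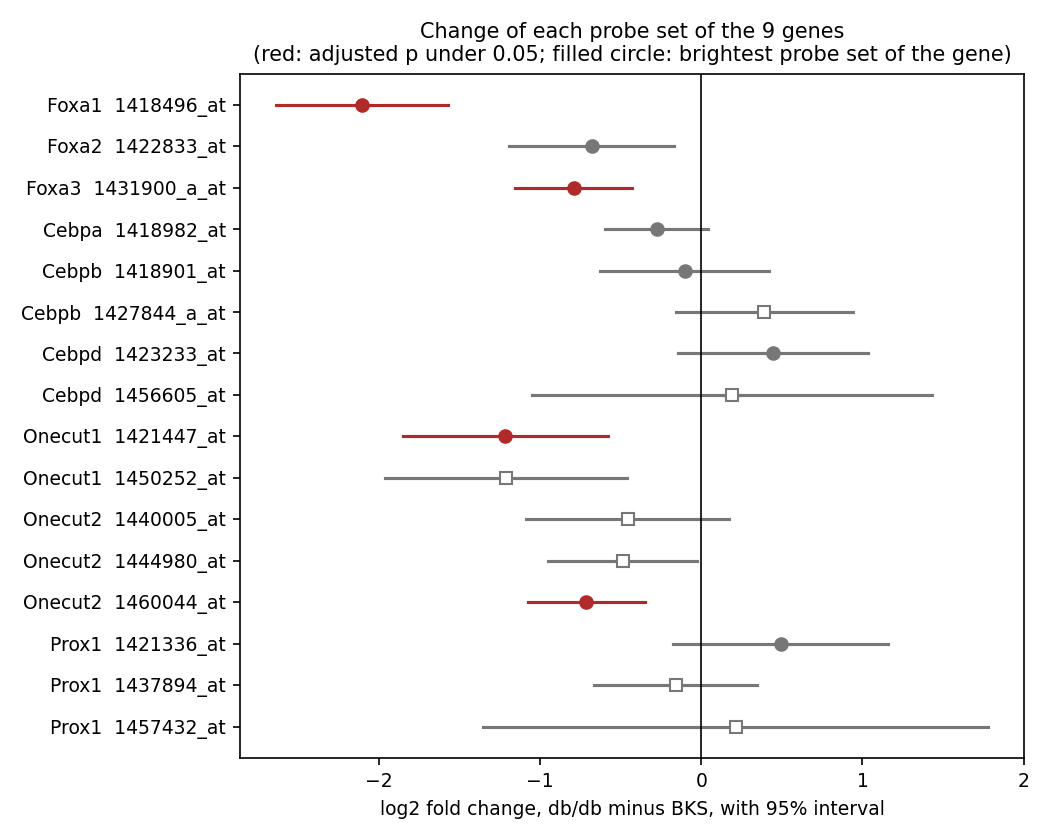
Log2 fold change (db/db minus BKS, horizontal axis) of all 16 probe sets with 95% intervals from limma. Red marks an adjusted p under 0.05 over all probe sets, filled circles the brightest probe set of a gene and open squares the others. The 4 red intervals belong to Foxa1 (-2.10), Onecut1 (-1.22), Foxa3 (-0.79) and Onecut2 (-0.71), and the intervals of all Cebpa, Cebpb, Cebpd and Prox1 probe sets include 0.

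Of 15 measured forkhead, C/EBP, cut homeobox and prospero relatives of these factors 3 fell and none rose, with a median of -0.20. All 3 are forkhead genes: Foxq1 (-1.75, SE 0.18, limma adjusted p = 8.95e-05), Foxn3, a repressor (-0.82, SE 0.13, adjusted p = 0.00165), and Foxp1 (-0.90, SE 0.23, adjusted p = 0.0367). Foxq1 also fell in both 18S sets fitted alone (-1.61 and -1.91). Other probe sets of Foxn3 and Foxp1 gave smaller changes, -0.04 and -0.22 for those of largest variance, and Foxp1 lost its call on leaving out any of BKS 1 to 3, or db/db 1, 3 or 4 (adjusted p up to 0.107). Cux2, a cut factor typical of female liver, stood at 0.21 (SE 0.41), and Foxo1, a forkhead factor restrained by insulin, at -0.20 (SE 0.21), both without a call.

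Other transcription factors of liver moved in both directions: of 28 measured 5 rose and 3 fell, with a median of -0.10. Xbp1, which drives secretory pathway genes, fell by 0.95 on the log2 scale (SE 0.11, limma adjusted p = 1.83e-04). Hhex, a homeobox factor of early liver and bile duct formation, fell by 1.11 (SE 0.19, adjusted p = 0.00361). It stood at -0.54 in the low 18S set fitted alone, where the call was lost (adjusted p = 0.0771), and -1.89 in the high set. Bcl6, a repressor enriched in male liver, fell by 1.22 (SE 0.24, adjusted p = 0.00803). Its call was lost with the mean of probe sets, eBayes without a trend and the low 18S arrays alone (adjusted p up to 0.111). Among those that rose were Tef, a basic leucine zipper factor of the circadian output (1.43, SE 0.30, adjusted p = 0.0130), and the nuclear receptors Nr1i3 (1.00, SE 0.22, adjusted p = 0.0155) and Nr1h4, the bile acid receptor (0.70, SE 0.15, adjusted p = 0.0169). Tef lost its call with eBayes without a trend and in the high 18S arrays alone (adjusted p up to 0.0885). The calls of both receptors were lost on leaving out db/db 1 (adjusted p up to 0.0538 for Nr1i3 and 0.0582 for Nr1h4), that of Nr1i3 also without db/db 2 and that of Nr1h4 also without db/db 3. With the 18S set as a block Nr3c1, the glucocorticoid receptor (-0.42, adjusted p = 0.0223), and Ppara, which drives fatty acid oxidation (0.59, adjusted p = 0.0265), passed as well. The call of Xbp1 was lost with median centring (-0.90, adjusted p = 0.125) and with the probe set of largest variance (adjusted p = 0.169).

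Genes that FOXA and C/EBP factors are known to bind did not follow 1 direction. None of 15 secreted liver proteins passed the test (limma, median 0.01): Alb was at 0.03 (SE 0.10) and Ttr, a classical FOXA target, at 0.02 (SE 0.09). Alb and Ttr are very bright, with BKS means of 15.47 and 15.38 on the log2 scale. Whether signals that bright can show a change was not tested. Proc, anticoagulant protein C, was nearest to the threshold (-0.34, SE 0.11, adjusted p = 0.0863). Of 20 acute phase genes, which C/EBP factors help to induce, 5 fell and none rose (median -0.24). Among them the serum amyloid A genes Saa4 (-1.46, SE 0.12, adjusted p = 7.57e-06), Saa3 (-1.12, SE 0.21, adjusted p = 0.00561) and Saa1 (-2.50, SE 0.52, adjusted p = 0.0124) fell, while Fga and Hp stood at -0.11 and -0.17 without a call. Saa1, Saa2 and Saa3 are similar in sequence and may share signal, and the call of Saa1 was lost with robust eBayes (adjusted p = 0.0945). The 18S block added calls for Apcs (-0.93, adjusted p = 0.0186) and Itih4 (-0.35, adjusted p = 0.0342).

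Of 12 genes of glucose production and amino acid breakdown that these factors regulate 4 rose and none fell, with a median of 0.40. Slc37a4, the glucose 6-phosphate transporter, rose by 1.02 (SE 0.11, limma adjusted p = 9.26e-05), the aminotransferase Got1 by 1.48 (SE 0.17, adjusted p = 1.67e-04) and G6pc, which frees glucose from glucose 6-phosphate, by 1.38 (SE 0.27, adjusted p = 0.00884). Pck1, the key gluconeogenic carboxykinase, was at 0.18 (SE 0.18, adjusted p = 0.689), and the coactivator Ppargc1a passed in the fit with the 18S block (0.74, adjusted p = 0.0377, against 0.0907 without it). In bile acid synthesis and transport 2 of 10 genes rose and 3 fell (median -0.03). Cyp7a1, the rate-limiting enzyme of bile acid synthesis, rose by 1.70 (SE 0.37, adjusted p = 0.0166, lost on leaving out db/db 1 or db/db 2 at up to 0.0564) and the bile acid uptake carrier Slc10a1 by 0.49 (SE 0.10, adjusted p = 0.0134, and 0.0565 without db/db 3). The oxysterol hydroxylase Cyp7b1 fell (-3.26, limma adjusted p = 2.66e-07), as did the organic anion carrier Slco1a1 (-6.04, adjusted p = 7.01e-04). For Slco1a1 leaving out db/db 1, 2, 3 or 4 gave -6.89 to -5.27, and the sets fitted alone gave -3.76 (low 18S) and -8.39 (high 18S). The sterol hydroxylase Cyp27a1 fell by 0.41 (adjusted p = 0.0342), a call lost in 7 of 9 fits with 1 array left out (adjusted p up to 0.100). The bile salt exporter Abcb11 passed with the 18S block (-0.46, adjusted p = 0.0280) and not without it (adjusted p = 0.0543).

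Onecut1 is known to act with growth hormone signals on sex-biased liver genes, and of 10 measured genes of that kind 3 rose and 5 fell, by up to 7.53 for the sulfotransferase Sult3a1 and -8.51 for the steroid dehydrogenase Hsd3b5, both of which are dim in 1 group (BKS mean 6.05 ± 2.15 for Sult3a1 and db/db mean 5.13 ± 0.88 for Hsd3b5, SD on the log2 scale). Their sizes therefore depend on the added 16: with 64 or 1 added Sult3a1 gave 6.49 and 8.42 and Hsd3b5 gave -7.22 and -9.52. Leaving out BKS 3 moved Sult3a1 to 8.47. This list was chosen knowing that such genes change in these samples, and it is no independent evidence. Among 14 receptors, inhibitors and response genes of hormone and cytokine signalling, pathways known to act on C/EBP genes, 2 rose and 2 fell (median 0.29). The glucocorticoid-induced genes Fkbp5 (1.45, SE 0.21, limma adjusted p = 9.58e-04) and Tsc22d3 (0.81, SE 0.19, adjusted p = 0.0226) rose, and the interleukin 1 receptor Il1r1 (-2.16, SE 0.24, adjusted p = 1.41e-04) and the cytokine inhibitor Socs3 (-2.11, SE 0.38, adjusted p = 0.00516) fell. The call of Tsc22d3 was lost on leaving out BKS 1, BKS 4 or db/db 2 (adjusted p up to 0.0559).

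**Figure D4:**
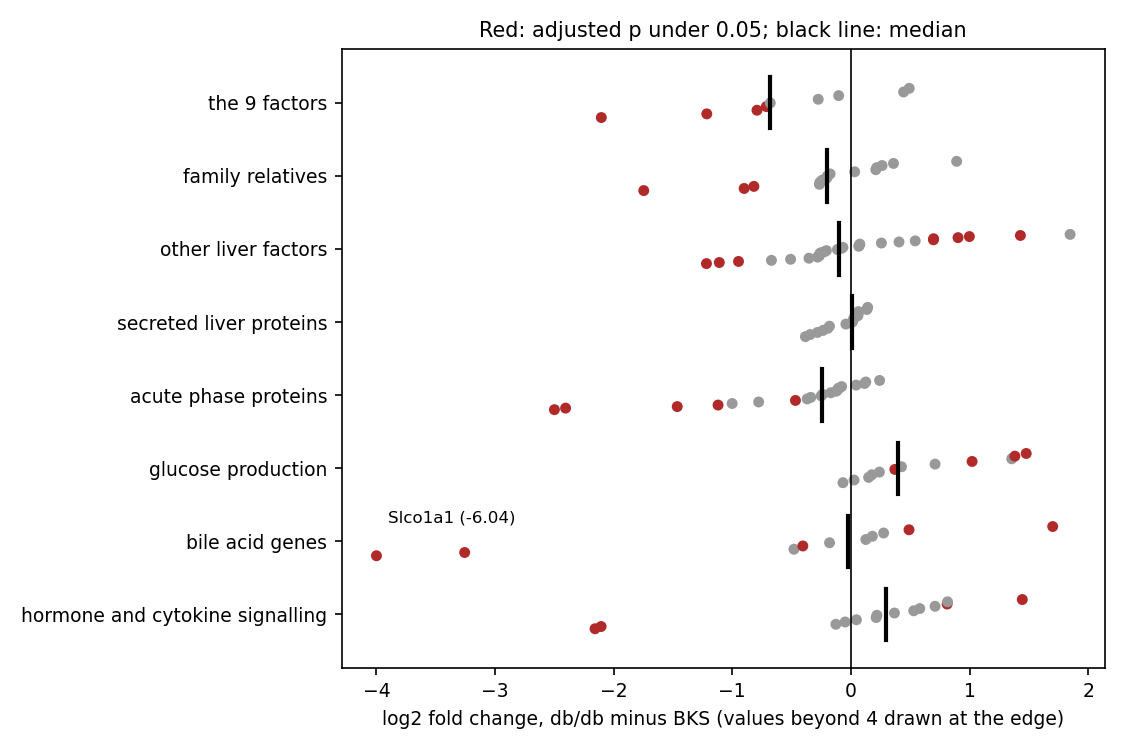
Log2 fold changes (db/db minus BKS, horizontal axis) of the 9 factors and of related gene lists, 1 point per gene, red where the adjusted p over all genes was under 0.05, with the list median as a black line. Values beyond 4 are drawn at the edge, as for Slco1a1 (-6.04). The median of the 9 factors lies at -0.68, that of secreted liver proteins at 0.01 and that of glucose production at 0.40.

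Markers of the cells that could carry these factors were measured beside them. The 8 hepatocyte markers showed no call with or without the 18S block, with a median of 0.02 (3 negative and 5 positive changes). Their summed signal was 306723 to 313535 in BKS and 292662 to 306379 in db/db, so that the sums did not overlap, by a narrow margin. Apoa1, the main protein of HDL, had the most negative change of the 8 and was the nearest to a call (-0.38, limma adjusted p = 0.179). Alb, Ttr and Apoa1, all among these markers, had BKS means of 15.47, 15.38 and 15.84 on the log2 scale. Whether markers that bright can show a change was not tested. Cholangiocytes also contain FOXA and ONECUT factors. Without a block none of 6 cholangiocyte markers passed (median -0.57), with Sox9 at -1.51 (SE 0.46, adjusted p = 0.0800) and a summed signal of 571 to 735 in BKS and 318 to 637 in db/db. Sox9 passed with the 18S set as a block (-1.59, adjusted p = 0.0268), in the low 18S set alone (-2.33, adjusted p = 0.0388) and on leaving out db/db 3 (-1.98, adjusted p = 0.0162). The median of these markers thus lay in the direction of Foxa1, Onecut1 and Onecut2, and their part in the result was not tested. Several cholangiocyte markers were dim. The log2 means in BKS and db/db were 5.22 and 5.25 for Cftr, 5.59 and 4.91 for Cldn7, and 7.69 and 6.18 for Sox9. Without a block none of 8 macrophage, 6 vascular endothelial, 8 stellate and 6 neutrophil markers passed. Their lowest adjusted p was 0.132 for Adgre1, 0.112 for Pecam1, 0.0851 for Lrat and 0.397 for S100a8, and their medians were -0.50, 0.02, 0.41 and 0.00. With the 18S set as a block the macrophage genes Adgre1 (-0.62, adjusted p = 0.0364) and Cd5l (-0.87, adjusted p = 0.0249) passed as lower. In the same fit the endothelial gene Pecam1 (1.64, adjusted p = 0.0470) and the stellate gene Lrat (0.98, adjusted p = 0.0398) passed as higher. Pecam1 was dim in BKS (mean 5.66 ± 1.13, SD on the log2 scale). Without a block Adgre1 also passed on leaving out db/db 1 (adjusted p = 0.0395), Pecam1 without BKS 2 (0.0318) and Lrat without BKS 3 (0.0162). Summed macrophage signal was 6104 to 17096 in BKS and 3860 to 9238 in db/db, and its part in the values of Cebpb and Cebpd, which myeloid cells also contain, was not tested. Of 6 adipocyte markers Pparg (1.46, adjusted p = 0.00439) and Fabp4 (1.36, adjusted p = 0.0249, lost in 6 of 9 fits with 1 array left out) rose, and their summed signal was 479 to 1030 in BKS and 1385 to 1946 in db/db. Adipoq, which defines adipocytes, was dim in both groups (5.11 and 5.14 on the log2 scale, change 0.03). Of 5 pancreatic markers Cela1 fell (-1.45, adjusted p = 0.00249), while the other 4 stood above 0 without a call and the list median was 0.12. Their summed signal, 2074 to 4651 in BKS and 1330 to 1471 in db/db, comes mostly from Cela1. The part of these marker differences in the results on the 9 factors was not tested.

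The genes whose pattern over the 9 arrays was most like that of a fallen factor were named by Pearson correlation, which includes the difference between genotypes. For Foxa1 they were D630039A03Rik (r = 0.991), Nat8f1 (r = 0.990) and Trim27 (r = 0.986), all 3 called lower themselves. For Foxa3 they were Mcm10 (r = 0.964, called lower), D630024D03Rik (r = 0.961) and Syne4 (r = 0.957). For Onecut1 they were Msantd3 (r = 0.969), Gcgr, the glucagon receptor (r = 0.951), and Abhd17b (r = 0.950, called lower), and for Onecut2 they were Rrs1 (r = 0.994, called lower), Tlr2 (r = 0.989) and Rpl7l1 (r = 0.976). Rrs1 and Abhd17b each lost their call in 8 of 9 fits with 1 array left out, and Trim27 lost its own on leaving out BKS 4, or db/db 3 or 4 (adjusted p up to 0.0652). These correlations are the highest of 18193 genes over 9 arrays that share the 18S split, and they are descriptions only.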

How the data were processed

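Total liver RNA of 9 samples was labelled with biotin for Affymetrix arrays, per the labels' protocols. The deposited values are linear intensities, 1 for each probe set on each array. Every array had a mean near 500 once its top and bottom 2% were dropped, which shows that the authors had scaled the arrays. Software and background correction: not given in the sources used here. Detection calls were not used here. No arrays were identical. Intensities were transformed as log2(value + 16) and then quantile normalized (limma 3.58.1, R 4.3.3). Adding 16 compresses changes of dim genes.

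Symbols came from GEO's platform annotation (45101 probe sets, 34945 with 1 symbol, 932 with several, 9160 with none listed, 64 controls). All 9 members matched the RefSeq gene table. Each gene was represented by its brightest probe set, kept the same in all alternatives except those on probe set choice. Tests were limma (lmFit, eBayes with trend, two-sided, group only) over 18193 genes, and again over 45037 probe sets. Changes within families were compared by exact permutation over arrays. The code was tested on simulated data.

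The members and gene lists (181 of 203 listed genes measured) were chosen with earlier results of these data known, as was the 18S split, cut at the largest gap in the control signal. Named genes were the members, up to 3 called genes per direction and list, the gene nearest to a call in lists without one, and 3 most correlated genes per called member. Cux2, Foxo1, Alb, Ttr, Fga, Hp, Pck1, Adipoq and genes called with the 18S block but not without it were named in addition, after their values were seen. Alternatives were other pseudocounts, scalings, a filter, probe set rules, eBayes settings, array weights, blocks, each 18S set alone and each array left out.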

Additional observations from a re-analysis of the deposited data

Results flagged for a closer look

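Of 150 groups of arrays examined for 1 array standing apart from the rest, 13 were found, and chance alone gives about 1 in 20. All values are normalized log2 signals or their differences. Among the members, Foxa3 was 11.01 on BKS 3 (others 11.50 to 11.65), and the brightest Onecut2 probe set was 9.96 on db/db 3 (others 10.42 to 10.46). Another Onecut2 probe set was 10.86 on BKS 1 (others 9.79 to 10.06). Prox1 was 8.34 on db/db 4 (others 8.77 to 8.81), and the dim Cebpd probe set was 4.98 on db/db 4 (others 6.62 to 6.92). The difference between Onecut1 and Onecut2 was -2.19 on db/db 4 (others -1.44 to -1.31).

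Among related genes, Proc was 13.50 on db/db 1 (others 13.66 to 13.69) and Apoa1 was 14.92 on db/db 3 (others 15.60 to 15.68). Hsd3b5 was 12.79 on BKS 2 (others 13.75 to 13.93) and 6.46 on db/db 1 (others 4.61 to 4.76). Il1r1 was 8.12 on db/db 2 (others 8.33 to 8.36). Fabp4 was 9.20 on BKS 1 (others 7.47 to 7.96) and 8.99 on db/db 4 (others 9.43 to 9.48).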

How the results depend on the processing

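The 4 members that fell and the absence of any that rose were also found with pseudocounts of 1 and 64, no normalization, a filter on dim genes, robust eBayes and the 18S block. The count of members called lower was 2 with median centring, 2 with the probe set of largest variance, 2 with the mean of probe sets, 1 with eBayes without a trend, 1 in the low 18S arrays alone, 3 with array weights (Onecut1 lost) and 3 in the high 18S arrays alone (Onecut2 lost), and 2 to 4 with 1 array left out. Foxa1 passed under every alternative run (-2.74 to -1.57). Member probe sets called numbered 2 with median centring, 1 without a trend and 1 in the low 18S arrays, and 1 to 4 with 1 array left out. Listed genes called numbered 39, 24 without a trend and 30 to 36 with 1 array left out. Of the 7 family pairs 2 were called, and 0 with the 18S sets kept apart and 0 to 0 with 1 array left out, where fewer splits limit the p. The family test was not run for the settings that change only limma's variance model or drop dim genes, and in each 18S set alone or in pairs its smallest p exceeds the threshold.

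The sign of Cebpb turned with median centring (0.00024), the probe set of largest variance (0.39), the mean of probe sets (0.14) and without db/db 2 (0.078), and it lay between -0.38 and 0.078 with 1 array left out. Trim27 (0.54), Syne4 (0.047) and Cebpb minus Cebpd (0.20) turned with the probe set of largest variance, Cebpa minus Cebpb in the low 18S arrays (0.14) and without db/db 4 (range -0.42 to 0.20 with 1 array left out), and Foxa2 minus Foxa3 without BKS 5 (range -0.018 to 0.28) and in the replicate block (-0.017). The cause was not tested.

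Deviations of equally numbered arrays correlated at 0.03, 0.17, -0.07 and 0.13, so the numbers were not taken as pairs. With the replicate block 5 members were called lower, Foxa2 among them (-0.76, adjusted p = 0.0317), and 7 member probe sets.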
